A study of Gossypium barbadense with 48 samples.

Results

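The 100 most stable genes of fiber development were taken from the expression values of 48 libraries of *Gossypium barbadense*, the extra-long staple cotton. A gene was kept when its FPKM (fragments scaled to gene length and to the mapped fragments of the library) was at least 20 in all 48 libraries, which 1160 of 69337 genes passed. The members are the 100 of these with the lowest coefficient of variation (CV, the SD over the mean, in percent) of FPKM over the 48 libraries. The members were thus selected on their FPKM in every library, so the values of the members are given as a description and nothing is supported with them.

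RNA had been sequenced from the varieties PimaS-7 and 5917, the American and the Chinese parent of a mapping population for fiber strength, with neither treatment nor transgene. Each variety was sampled every 5 days from flowering (0 DPA, days post anthesis) up to 35 DPA, and each of the 16 groups has 3 libraries. The labels call every sample cotton fiber, while the methods of the study give the 0 DPA samples as ovules, so a comparison with 0 DPA is also one between tissues. The study speaks of 2 plants and of 3 biological replicates and does not say whether replicates came from separate plants, so the spread between them may be partly technical.

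A gene of nearly constant level serves as the reference against which others are measured in quantitative PCR, and such genes mostly belong to the basic upkeep of the cell. Ubiquitin-conjugating enzymes and the 26S proteasome remove proteins, ribosomal proteins build the ribosome, ascorbate peroxidase disposes of hydrogen peroxide, and acyl carrier protein holds the growing chain in fatty acid synthesis. Cotton fibers are single cells of the seed coat that first elongate and then deposit a thick cellulose wall, so their RNA changes greatly between these stages.

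The libraries held 28222056 to 43390702 counts each, and a member had 346 to 10378 counts in a library. At the mean count of a member over the 48 libraries, counting error alone would give a CV of 1.18% to 4.18%. Libraries of a group correlated with each other at a mean r of 0.937 to 0.984 over log2(FPKM + 1). The library 5917 25 DPA replicate 2 was nearer to the 5917 30 DPA libraries (0.956) than to its own group (0.947), and 5917 30 DPA replicate 2 was nearer to those of 35 DPA (0.963 against 0.960). The 3 secondary wall markers, *TBL43*, *MYB86* and *KNAT7*, summed to 5.14 to 46.9 FPKM in the libraries of 0 to 20 DPA and to 81.7 to 319.6 FPKM from 25 DPA on. The 6 elongating fiber markers (*HTH*, *EXLB1*, *PIP1-2* and *PAS2*) summed to 76.8 to 99.2 FPKM in the ovules. Their sum was 247.6 to 1937 FPKM from 5 to 20 DPA and 107.8 to 448.6 FPKM from 25 DPA on. *PIP1-2* alone ran from 65.4 to 1799 FPKM, and 1 copy of *EXLB1* was listed at 0 in 47 of 48 libraries. The 4 photosynthesis genes summed to at most 5.45 FPKM up to 20 DPA, to 1.60 to 18.1 FPKM from 25 DPA on in PimaS-7 and to 18.5 to 42.2 FPKM in 5917. Of these, *PSBW* (Gbar_D08G021220) alone reached 40.6 FPKM, while *PSBT*, *PSAN* and the second *psbW* gene reached at most 4.055, 0.749 and 1.23 FPKM. The highest sums thus rest on 1 gene. The 3 seed and embryo genes reached at most 2.455 FPKM in any library. The part of these genes in the results was not tested. In these bulk samples fewer cells of a type and less RNA per cell cannot be told apart.

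The members had a CV of FPKM of 7.87% to 18.6%, with a median of 16.6%, beside a median of 31.9% over the 1160 genes past the floor. Their mean level was 26.9 to 182.5 FPKM (median 43.97), and the highest library stood 1.47 to 3.02 times above the lowest (median 2.05, against 3.76 over the genes past the floor). In 41 members the 48 libraries stayed within a 2-fold range. The edge of the set was not a gap, as Gbar_A10G007000 and Gbar_A13G006530, the members ranked 99 and 100, had a CV of 18.59% and 18.63%, and the next genes, Gbar_D02G012260 and Gbar_A11G003320, had 18.65% and 18.68%.

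**Figure D1:**
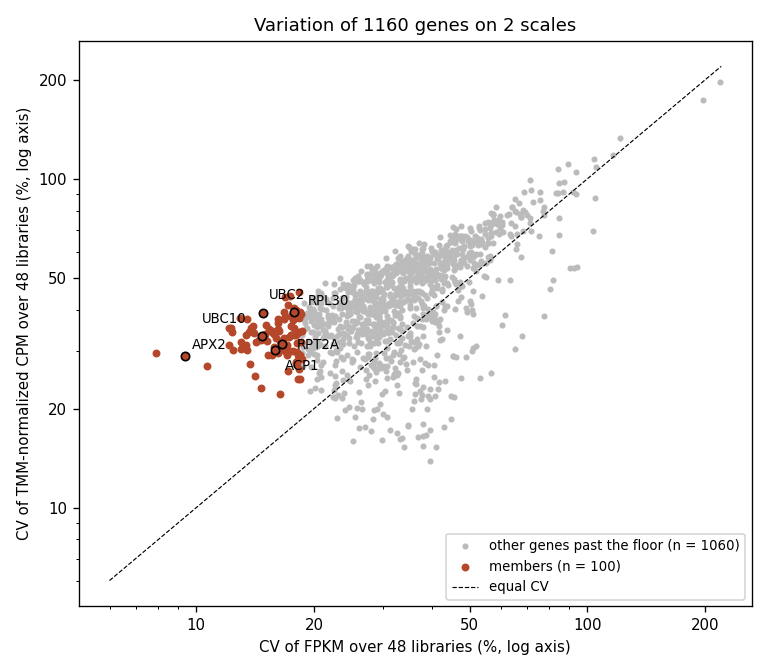
CV of FPKM (x axis, percent) against the CV of TMM-normalized CPM (y axis, percent), both over 48 libraries and on log axes, for the 1160 genes past the floor, with the 100 members in colour, the 6 named members circled and a dashed line of equal CV. The members lie at 7.87% to 18.6% on the x axis and at 22.2% to 45.2% on the y axis, all above the dashed line.

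Names were held for 1703 genes of the files, of which 1154 lie on chromosome D08, 520 on D11 and 29 on D03, the chromosomes of the fiber strength loci of the study. Only 36 of the 1160 genes past the floor and 6 of the 100 members have one, so the names do not describe the set as a whole. The 6 named members belong to protein removal, antioxidant defence, lipid synthesis and the ribosome. Chromosomes are read from the identifiers, in which A and D stand for the subgenomes of this tetraploid. How reads shared by related copies were assigned is not given in the sources used here, so the value of each copy is uncertain to that degree.

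*APX2* (Gbar_D08G021920), a cytosolic L-ascorbate peroxidase that reduces hydrogen peroxide with ascorbate, was the most stable named gene, ranked 2 of 1160 with a CV of 9.36% and a mean of 53.5 FPKM. In PimaS-7 its FPKM in the 3 replicates was 46.6, 46.3 and 54.3 at 0 DPA, 57.4, 66.2 and 52.1 at 5 DPA, 61.1, 59.4 and 58.4 at 10 DPA, 51.9, 56.02 and 52.8 at 15 DPA, 61.8, 54.5 and 56.1 at 20 DPA, 53.8, 50.3 and 52.5 at 25 DPA, 59.2, 50.7 and 46.4 at 30 DPA, and 61.5, 63.6 and 62.5 at 35 DPA. In 5917 it was 52.4, 48.03 and 52.7 at 0 DPA, 50.5, 48.5 and 49.9 at 5 DPA, 47.5, 54.2 and 50.2 at 10 DPA, 51.1, 53.4 and 52.05 at 15 DPA, 55.4, 53.5 and 52.7 at 20 DPA, 56.9, 45.1 and 59.1 at 25 DPA, 48.5, 52.6 and 50.6 at 30 DPA, and 50.97, 46.4 and 51.4 at 35 DPA. The lowest and the highest of the 48 values came from 5917 25 DPA replicate 2 and PimaS-7 5 DPA replicate 2. The 3 PimaS-7 libraries of 35 DPA all lay above the 24 libraries of 5917, and the varieties did not overlap at 5 and 10 DPA either, with PimaS-7 the higher. Within 5917 alone its CV was 6.31%, and within PimaS-7 10.1%. A second gene named *APX2*, Gbar_D08G021900, had a CV of 37.2% at a mean of 39.6 FPKM and did not pass the floor.

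*UBC10* (Gbar_D08G013020), an E2 enzyme that passes activated ubiquitin on to target proteins, ranked 26 with a CV of 14.7% and a mean of 66.3 FPKM. In PimaS-7 its FPKM was 58.3, 74.03 and 77.04 at 0 DPA, 77.5, 81.3 and 79.1 at 5 DPA, 61.1, 57.5 and 63.7 at 10 DPA, 68.5, 60.95 and 63.8 at 15 DPA, 70.3, 74.98 and 79.1 at 20 DPA, 68.9, 64.3 and 65.9 at 25 DPA, 61.9, 55.02 and 63.4 at 30 DPA, and 64.3, 75.3 and 53.2 at 35 DPA. The 5917 libraries gave 85.8, 59.3 and 72.9 at 0 DPA, 57.2, 58.3 and 51.9 at 5 DPA, 49, 44.4 and 42.2 at 10 DPA, 73.3, 74.2 and 64.8 at 15 DPA, 63.03, 63.6 and 71.7 at 20 DPA, 69.04, 72.9 and 58.1 at 25 DPA, 68.1, 67.3 and 68.2 at 30 DPA, and 68.3, 85.6 and 72.4 at 35 DPA. The 3 libraries of 5917 10 DPA lay below the other 45 libraries, and the group mean there was 45.2 ± 3.47 FPKM (SD, n = 3), against 79.3 ± 1.90 in PimaS-7 5 DPA, the highest group.

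*UBC2* (Gbar_D11G025390), another ubiquitin-conjugating E2, ranked 27 with a CV of 14.8% and a mean of 64.7 FPKM. In PimaS-7 its FPKM was 44.9, 58.3 and 58.7 at 0 DPA, 58.2, 89.2 and 74.95 at 5 DPA, 66, 62.8 and 62.9 at 10 DPA, 62.6, 60.6 and 66.8 at 15 DPA, 69.5, 60.6 and 69.7 at 20 DPA, 75.7, 68.9 and 68.6 at 25 DPA, 72.4, 66.1 and 66.1 at 30 DPA, and 61.8, 65.5 and 51.5 at 35 DPA. For 5917 the values were 62.6, 43.8 and 43.5 at 0 DPA, 62.4, 55.8 and 64.9 at 5 DPA, 56.7, 51.8 and 49.97 at 10 DPA, 65.1, 71.05 and 66.1 at 15 DPA, 60.7, 72.4 and 77.6 at 20 DPA, 74.1, 70.2 and 60.9 at 25 DPA, 85.6, 64.4 and 69.7 at 30 DPA, and 64.2, 80.6 and 69.7 at 35 DPA. Its 3 lowest values were those of ovule libraries, 2 of 5917 and 1 of PimaS-7, while the highest came from PimaS-7 5 DPA, where the 3 replicates spread from 58.2 to 89.2 FPKM. The other genes named *UBC2* were lower and more variable, Gbar_D08G024300 with a mean of 17.7 FPKM and a CV of 25.6% and Gbar_D08G018850 with 2.40 FPKM and 65.2%.

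*RPT2A* (Gbar_D08G021650), an ATPase of the regulatory particle that feeds unfolded proteins into the 26S proteasome, ranked 50 with a CV of 16.5% and a mean of 41.3 FPKM. In PimaS-7 its FPKM was 31.8, 35.3 and 33.05 at 0 DPA, 35.3, 41.5 and 34.7 at 5 DPA, 33.9, 34.1 and 38.6 at 10 DPA, 34.3, 41.5 and 39.4 at 15 DPA, 46.8, 41.9 and 41.2 at 20 DPA, 39.9, 36.1 and 35.6 at 25 DPA, 51.2, 45.3 and 38.9 at 30 DPA, and 53.5, 64.04 and 61.3 at 35 DPA. Its values in 5917 were 37.4, 36.6 and 34.2 at 0 DPA, 47.2, 48.04 and 52.4 at 5 DPA, 41.8, 38.9 and 38.9 at 10 DPA, 39.7, 41.7 and 44.1 at 15 DPA, 41.4, 43.4 and 42.6 at 20 DPA, 44.5, 36.3 and 43.4 at 25 DPA, 33.3, 42.5 and 36.9 at 30 DPA, and 39.7, 45.9 and 42.3 at 35 DPA. The 3 libraries of PimaS-7 35 DPA lay above the other 45, and its CV was 20.97% within PimaS-7 and 10.9% within 5917. The other *RPT2A* gene, Gbar_D11G024510, had nearly the same mean of 43.1 FPKM but ranged from 16.9 to 98.8 FPKM, with a CV of 52.3%.

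*ACP1* (Gbar_D11G026070), a plastid acyl carrier protein that carries the acyl chain during fatty acid synthesis, ranked 40 with a CV of 15.9% and a mean of 42.7 FPKM. In PimaS-7 its FPKM was 32.8, 34.2 and 34.7 at 0 DPA, 47.2, 58.2 and 36.4 at 5 DPA, 52.8, 51.8 and 47.6 at 10 DPA, 47.2, 46.5 and 43.8 at 15 DPA, 48.3, 42.9 and 50.3 at 20 DPA, 49.3, 39.1 and 43.1 at 25 DPA, 47.1, 38.98 and 34.7 at 30 DPA, and 37.99, 41.01 and 43.5 at 35 DPA. In the other variety, 5917, they were 43.4, 39.9 and 35.5 at 0 DPA, 45.01, 53.1 and 49.2 at 5 DPA, 44.5, 42.6 and 50.9 at 10 DPA, 46.4, 48.03 and 44.99 at 15 DPA, 41.2, 47.8 and 45.9 at 20 DPA, 49.1, 30.2 and 35.4 at 25 DPA, 33.6, 30.7 and 28.3 at 30 DPA, and 34.98, 40.2 and 40.7 at 35 DPA. The group means ran from 30.9 ± 2.61 FPKM in 5917 30 DPA to 50.7 ± 2.73 in PimaS-7 10 DPA (SD, n = 3), and the 3 values of these groups did not overlap.

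*RPL30* (Gbar_D11G023700), a protein of the large ribosomal subunit, ranked 77 with a CV of 17.8% and a mean of 59.8 FPKM. In PimaS-7 its FPKM was 47.2, 41.3 and 47.7 at 0 DPA, 60.1, 74.9 and 53.03 at 5 DPA, 61.1, 60.8 and 57.7 at 10 DPA, 73.1, 61.6 and 65.04 at 15 DPA, 70.7, 72.3 and 73.8 at 20 DPA, 76.1, 50.2 and 63.2 at 25 DPA, 64.6, 50.5 and 42.97 at 30 DPA, and 46.9, 53.3 and 44.8 at 35 DPA. The FPKM in 5917 was 49.1, 47.5 and 41.6 at 0 DPA, 60.3, 69.8 and 60.2 at 5 DPA, 57.6, 64.6 and 49.5 at 10 DPA, 64.7, 73.99 and 66.6 at 15 DPA, 65.6, 66.7 and 78.6 at 20 DPA, 77.5, 57.6 and 45 at 25 DPA, 68.9, 53.6 and 52.7 at 30 DPA, and 50.7, 73.8 and 61.9 at 35 DPA. The 6 ovule libraries lay between 41.3 and 49.1 FPKM, in the low part of its range, and the 3 libraries of PimaS-7 20 DPA between 70.7 and 73.8 FPKM in the high part. The second *RPL30* gene, Gbar_D08G021950, was expressed at a mean of 7.33 FPKM with a CV of 48.3%.

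**Figure D2:**
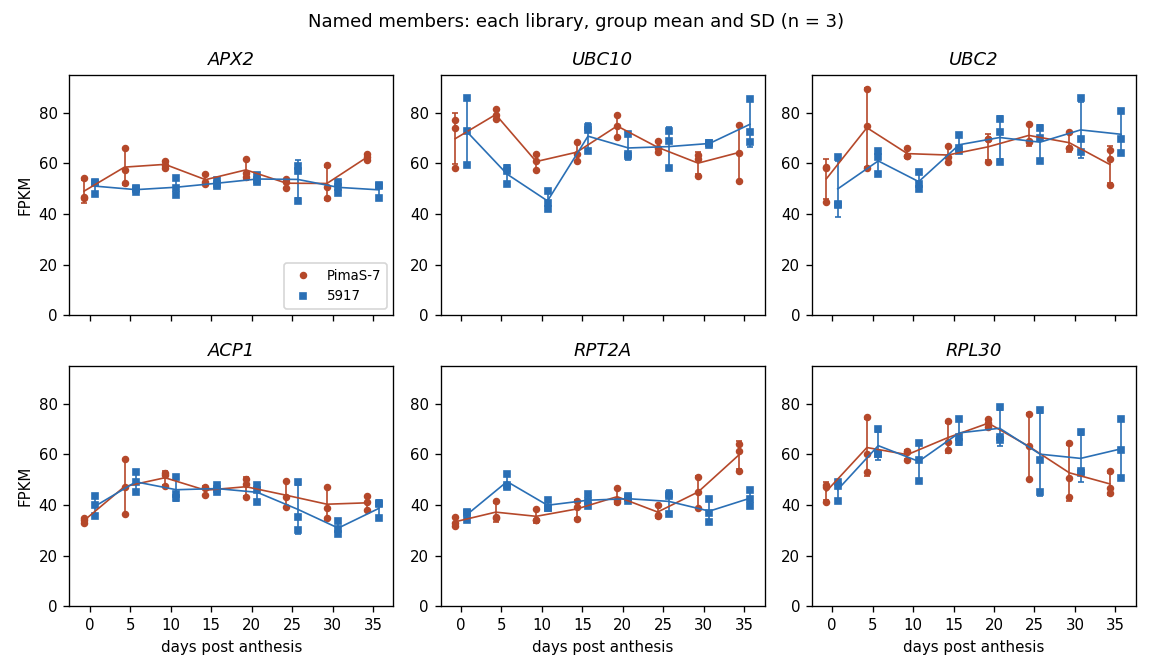
FPKM of the 6 named members (y axis) against days post anthesis (x axis) in PimaS-7 and 5917, with 1 point per library and the group mean and SD (n = 3) as lines and bars. *APX2* stays between 45.1 and 66.2 FPKM in all 48 libraries, and *RPT2A* ends at 53.5 to 64.0 FPKM in PimaS-7 35 DPA.

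Members without a name are given by identifier. The lowest CV of all, 7.87%, was that of Gbar_A13G001090, with 38.5 to 57.9 FPKM over the libraries, a highest group of 5917 0 DPA (56.3 FPKM) and a lowest of 5917 35 DPA (40.8 FPKM). Gbar_A03G009150 followed *APX2* with a CV of 10.6% and 25.3 to 39.9 FPKM. Gbar_A06G015320 (12.1%, 36.9 to 63.2 FPKM) and Gbar_D05G034250 (12.2%, 20.1 to 32.4 FPKM) came next. The lowest group mean was at 0 DPA in PimaS-7 for *APX2* and Gbar_A06G015320, and at 25, 30 and 35 DPA for Gbar_A03G009150, Gbar_D05G034250 and Gbar_A13G001090. The members of the highest mean level were Gbar_A07G007230 with 182.5 FPKM, Gbar_A05G036990 with 133.0 and Gbar_D07G009190 with 128.1 FPKM, and those of the lowest were Gbar_D05G034250 with 26.9, Gbar_A02G005220 with 27.6 and Gbar_D13G016170 with 28.1 FPKM.

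Low levels were common in the set. The 1160 genes were split by mean FPKM into quartiles of 290. The lowest quartile (26.9 to 52.1 FPKM) held 66 members, and the next ones held 21, 9 and 4. The floor bears on this split, since a gene of low mean passes only if no library falls far below that mean. The median CV of FPKM was 25.1% in the lowest quartile and 41.8% in the highest. Nothing is therefore read from the split. The A subgenome held 51 members of its 545 genes past the floor and the D subgenome 48 of 585, and 1 member lay on a scaffold. None of the 26 genes past the floor that the assembly had added as new genes was a member. Chromosome D11 held 11 members of its 62 genes past the floor, A03 held 7 of 31 and D08 7 of 54, while D01 and D03 held none of 38 and 27.

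Genes of the families from which references are taken were not all stable here. Of the 17 genes of the families of quantitative PCR references for which a name was held, 4 passed the floor, namely *UBC10*, *UBC2*, the elongation factor 1-delta gene Gbar_D08G021630, which helps to recharge the factor that brings aminoacyl-tRNA to the ribosome, and the actin gene *ACT7*. The elongation factor ranked 461 with a CV of 28.965%, and *ACT7* ranked 1007 with 49.7% and 27.5 to 328.6 FPKM. *TUBB1*, a beta-tubulin of the microtubules, had a CV of 140.4% and reached 1944 FPKM from a lowest value listed at 0, and the tubulin beta-9 chain had 88.0%. Over the list the median CV was 62.5%. Of its 17 genes, 7 were called in 1 or more of the 22 comparisons between groups, against 65.7% of all genes tested. The list goes by family, and the median FPKM of its genes ran from 0 to 304.8, so it does not stand for references in use. The study normalized its own quantitative PCR to cotton *UBQ7*, of which no value is given here.

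Among the 14 cytosolic ribosomal protein genes in the files, 7 passed the floor with CVs from 17.8% to 40.4% (median 28.1%), and *RPL30* was the single member. Of the 7 proteasome subunit genes, *RPT2A* and *RPN5A* passed, and *RPN5A*, a lid subunit with a CV of 19.6%, ranked 122, just outside the members. Both genes of ubiquitin conjugation and removal that passed the floor were members, out of 31 in the files. The 2 respiratory genes past the floor, *COX5C* and *COX6A* of cytochrome c oxidase, had 25.5% and 31.6%. No gene of translation initiation (6 in the files), splicing (10), vacuolar proton pumps (5) or chaperones (10) passed the floor, and the one vesicle transport gene that did, *ARF*, had 32.9%. Neither did a gene of photosynthesis, of seed and embryo proteins or of the secondary wall markers, while *CDKF-4*, a cyclin-dependent kinase of the cell cycle list, passed with 56.9% and *PIP1-2*, an aquaporin of the elongating fiber list, with 86.9%. The genes called in any of these comparisons were 8 of 14 ribosomal, 3 of 7 proteasome, 13 of 26 ubiquitin, 3 of 6 respiratory, 3 of 5 initiation, 3 of 9 splicing, 21 of 30 vesicle, 5 of 5 proton pump and 6 of 10 chaperone genes tested. Of the marker lists these were 9 of 14 cell cycle, 3 of 4 photosynthesis, 1 of 1 seed, 3 of 3 secondary wall and 4 of 5 elongating fiber genes.

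The variation that was left in the members was divided between stage, variety and replicates. Of their summed variance of log2(FPKM + 1), 53.8% lay between stages, 4.11% between the varieties, 17.7% in the interaction of both, and 24.4% between replicates. Without the 0 DPA ovules the share between stages was 47.9%. Over all genes past the floor the shares were 81.0%, 3.08%, 7.97% and 7.95%. Within groups the median CV of the members was 9.15%, against 11.7% over the genes past the floor, and over the 16 group means it was 14.3% against 30.6%. The rule, taken over all libraries, itself limits the spread of the group means, and the genes past the floor include the members.

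The highest group mean of a member was 1.27 to 2.07 times the lowest (median 1.66, and 2.93 over the genes past the floor). The highest group was PimaS-7 5 DPA for 23 members, PimaS-7 35 DPA for 20, 5917 5 DPA for 12 and PimaS-7 20 DPA for 11. The lowest was PimaS-7 0 DPA for 27, 5917 30 DPA for 12 and 5917 10 DPA for 10. The median over the members of the log2 group mean, relative to each gene's mean over the groups, ran only from -0.18 in PimaS-7 0 DPA to 0.11 in PimaS-7 20 DPA, while over the genes past the floor it ran from -0.50 to 0.24 in the same groups.

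Single libraries held many of the extremes. PimaS-7 5 DPA replicate 2 gave the highest of the 48 values in 26 members, 5917 35 DPA replicate 2 in 12 and PimaS-7 35 DPA replicate 2 in 11. The geometric mean of the 100 members ran from 41.3 FPKM in PimaS-7 0 DPA replicate 1 to 55.2 FPKM in PimaS-7 5 DPA replicate 2, with a CV of 6.30% over the libraries. The FPKM of all genes summed to 457957 in the first of these libraries, the lowest sum of the 48. It was 545034 in the second, against 505222 and 490248 in replicates 1 and 3 of that group. The part of these sums in the extremes was not tested. The counts of the members made up 0.752% to 0.954% of a library.

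These levels rest on FPKM, which divides by the total of the library. TMM, the trimmed mean of M-values of edgeR, instead sets the bulk of genes equal between libraries, and its factor ran from 0.586 to 1.89, with the 6 ovule libraries at 1.77 to 1.89. On TMM-normalized CPM (counts scaled to a fixed library total) the members had a median CV of 33.1% (22.2% to 45.2%), against 41.5% over the genes past the floor. Only 5 of the 100 were also among the 100 lowest on that scale, namely Gbar_D10G006880, Gbar_D09G008140, Gbar_A07G013770, Gbar_A05G043700 and Gbar_D06G022130. Counts divided by the size factors of DESeq2 kept 6. FPKM rescaled to TPM (every library brought to the same sum) kept 82, and CPM by library size alone kept 85.

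On the TMM scale the members shared a course. Their geometric mean was lowest in the ovules and rose to 15 DPA in both varieties. Of the 100 members, 96 had their lowest group at 0 DPA, 84 of them in PimaS-7 and 12 in 5917. This course was not particular to the members. Relative to each gene's mean over the groups, their median log2 level was -1.06 in PimaS-7 0 DPA and 0.51 in PimaS-7 25 DPA. Over the genes past the floor it was -1.37 and 0.55 in the same groups. The median over the members was 36.9 CPM in PimaS-7 0 DPA, 102.3 CPM in PimaS-7 25 DPA and 106.1 CPM in 5917 30 DPA. This median was lower in PimaS-7 than in 5917 at every stage but 25 DPA, where it was 90.1 CPM in 5917. It was 50.1 against 59.4 CPM at 5 DPA and 82.2 against 101.4 CPM at 15 DPA. At 30 and 35 DPA it was 71.9 and 73.3 CPM in PimaS-7 against 106.1 and 96.1 CPM in 5917 on this scale. *APX2* rose there from 43.5 ± 4.10 to 127.6 ± 3.96 CPM between 0 and 25 DPA in PimaS-7 (SD, n = 3), while on the FPKM scale the same groups had 49.1 ± 4.54 and 52.2 ± 1.78. *APX2* and Gbar_A13G001090, the 2 members that moved most between the scales, went from ranks 2 and 1 on FPKM to 161 and 180 on TMM-normalized CPM.

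**Figure D3:**
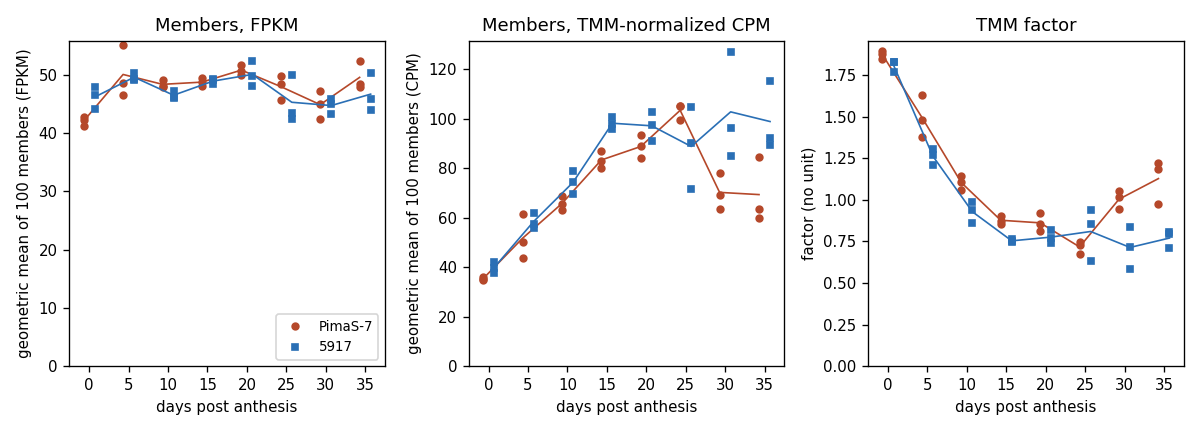
Geometric mean of the 100 members in each library as FPKM (left, y axis) and as TMM-normalized CPM (middle), and the TMM factor (right, no unit), against days post anthesis, with 1 point per library and lines through the group means. The members span 41.3 to 55.2 FPKM but 35.0 to 127.0 CPM, and the factor falls from 1.77 to 1.89 in the ovules to at most 0.938 in the libraries of 15 to 25 DPA.

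**Figure D4:**
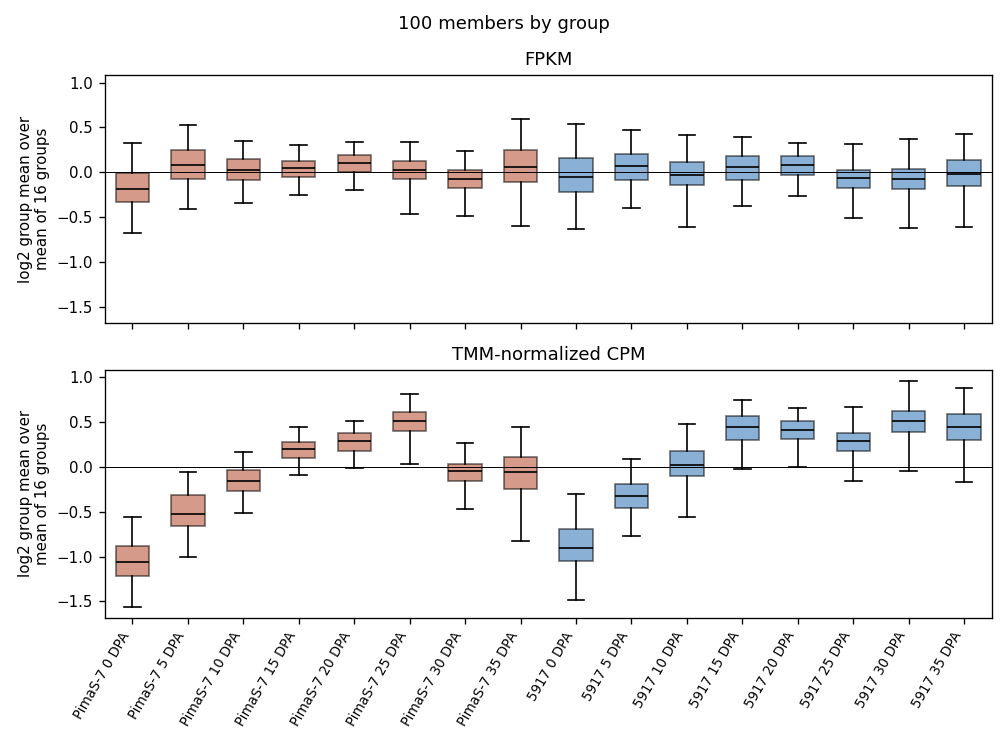
Log2 group mean of each of the 100 members relative to its mean over the 16 groups (y axis), by group (x axis), on FPKM and on TMM-normalized CPM. Boxes show the quartiles and the median, and whiskers the lowest and the highest member. On FPKM the medians lie between -0.18 and 0.11, and on TMM-normalized CPM between -1.06 and 0.51.

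A different set was lowest in CV on the TMM scale. Its 100 genes had a median CV of 22.1% there and 30.2% on FPKM, and 5 of them have a name, *RGGB*, an RNA-binding protein, the elongation factor 1-delta gene, *RPS13* of the small ribosomal subunit, *BTF3*, a factor that binds nascent proteins, and the nucleoside diphosphate kinase B gene. Their CVs on TMM-normalized CPM were 19.2%, 19.9%, 21.5%, 21.6% and 25.6%, and on FPKM 30.0%, 28.965%, 23.6%, 22.6% and 31.975%. The elongation factor, outside the members on FPKM, was thus more even than *UBC10* (33.3%) and *UBC2* (39.2%) on the TMM scale.

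The ratio of 2 genes within a library does not depend on how the library is scaled. Over the 4950 pairs of members, the SD of the log2 ratio over the 48 libraries had a median of 0.299 (0.104 to 0.513), against 0.645 over all pairs of genes past the floor and 0.341 over the pairs of the 100 genes most stable on the TMM scale. These SDs are the same under any scaling of the libraries. The rule chose the members for a small spread of FPKM over the same libraries. That choice itself limits the spread of their ratios, so the set is not supported by these SDs. Among the named members the steadiest pair was *APX2* and *RPT2A*, with an SD of 0.210, and the least steady *UBC10* and *ACP1*, with 0.349. Each gene was also set against every gene past the floor. Of the 100 genes with the lowest mean SD of the log2 ratio, 36 were members. None of the 100 was one of the genes most stable on the TMM scale. Both sets were chosen on values of these libraries, so neither is ranked above the other by these counts.

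The groups were compared in 22 ways, 7 steps between successive stages in each variety and PimaS-7 against 5917 at each of the 8 stages, with the quasi-likelihood F-test of edgeR on the counts of the 6 libraries concerned. Calls required a Benjamini-Hochberg adjusted p, over all genes tested, of at most 0.05 together with a change of 1 or more on the log2 scale in either direction. Of the members, 17 were called in 1 or more comparisons, where 65.7% of the 56983 genes tested were, and 100 passed the adjusted p at any fold, where 83.2% of genes did. Since the rule chose genes that vary little over the same libraries, nothing is read from these counts. The calls were in 3 comparisons. In the step from 0 to 5 DPA, 10 members were called higher in 5917 (14.4% of genes tested) and 3 in PimaS-7 (9.63%), and 6 were called lower in PimaS-7 than in 5917 at 35 DPA (9.89%). No named member was called. In the test of whether a step differed between the varieties, 4 members passed, all in the step from 25 to 30 DPA, where 8.0% of genes did.

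The called members with the greatest change were Gbar_D04G017000 and Gbar_A11G005090. Gbar_D04G017000 stood at 51.6, 53.8 and 50.7 FPKM in the 3 ovule libraries of 5917 and at 93.6, 95.1 and 96.7 FPKM at 5 DPA, a log2 fold change of 1.29 with TMM. The same gene had 45.7, 46.5 and 46.4 FPKM at 0 DPA and 70.6, 78.7 and 67.3 FPKM at 5 DPA in PimaS-7. Its groups did not overlap in either variety. Gbar_A11G005090 stood at 28.96, 25.9 and 20.98 FPKM in 5917 ovules and 42.1, 45.5 and 46.2 FPKM at 5 DPA, a log2 fold change of 1.23, and its groups did not overlap either. Single libraries set some of these counts. With a library left out the share of all genes was not taken, so the counts that follow are not read as a trait of the members. Without PimaS-7 35 DPA replicate 2, 22 members were called lower at 35 DPA in place of 6, without 5917 35 DPA replicate 2 or PimaS-7 35 DPA replicate 1 only 1 was, and without 5917 35 DPA replicate 3 it was 3. Without PimaS-7 5 DPA replicate 2 none was called in the first step of that variety, and without replicate 3 it was 10. In the same step of 5917 the count was 6 without 5917 5 DPA replicate 2 and 8 to 13 without any of the other 5 libraries.

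Under the other fits the members called were 20 with DESeq2 (59.9% of genes), 19 with the size factors of DESeq2 in edgeR (65.5%), 15 with no filter on low counts (54.3%), 16 with replicate numbers blocked (59.6%) and 20 in 1 fit of all 48 libraries (67.1%). At any fold these counts were 100 (73.2%), 100 (82.6%), 98 (67.8%), 97 (73.8%) and 99 (82.7%). With limma on log2(FPKM + 1) no member was called (50.1% of genes), although 98 had an unadjusted p of at most 0.05, and 92 passed at any fold (91.7%). With log2(FPKM + 0.1) these counts were also 0 and 92 (75.2% and 91.1% of genes).

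The scaling moved the middle of all genes. With library size alone in place of TMM, the median log2 fold change of all genes tested shifted by up to 0.49 between the fits, and was -0.57 in place of -0.09 for the step from 0 to 5 DPA in 5917. No member was called on that scaling by the edgeR test, where 73.9% of genes were, and 84 passed the adjusted p at any fold, where 88.7% of genes did. In 1 or more comparisons of that test 99 members had an unadjusted p of at most 0.05 at any fold, and 0 with a 2-fold change. No share of all genes was taken for the unadjusted counts, so nothing is read from them. Of the member results that passed the adjusted p at any fold, 312 were higher and 115 lower with TMM (73.1% higher), and 111 were higher and 91 lower with library size alone (55% higher). Over all genes the share was taken only with the 2-fold threshold, where it was 51.5% with TMM and 44.6% with library size alone. Nothing about the members is therefore read from this split. The direction of the members' median turned with the scaling in several comparisons. It was 0.31 with TMM and -0.09 with library size alone for the step from 5 to 10 DPA in PimaS-7, and 0.35 and -0.09 for the same step in 5917. Between the varieties it was below 0 with TMM and above 0 with library size alone at 5, 10, 20 and 35 DPA, with -0.42 and 0.07 at 35 DPA.

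A scaling of libraries shifts all genes by about the same amount, so the difference between the members' median and that of all genes tested is nearly the same on both by construction. In the step from 0 to 5 DPA the median of the members lay above that of all genes by 0.53 in PimaS-7 and 0.57 in 5917 on the log2 scale with TMM, and by 0.51 and 0.57 with library size alone. In the step from 25 to 30 DPA of PimaS-7 the difference was -0.63 with either scaling. Between the varieties at 35 DPA, as PimaS-7 minus 5917, it was -0.56 with either. These differences are from all genes tested and not from the genes past the floor, which rose more than the members from 0 to 5 DPA. On TMM-normalized CPM their median log2 level, relative to each gene's mean, went from -1.37 to -0.48 in PimaS-7 and from -1.23 to -0.22 in 5917. For the members it went from -1.06 to -0.52 and from -0.90 to -0.32.

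**Figure D5:**
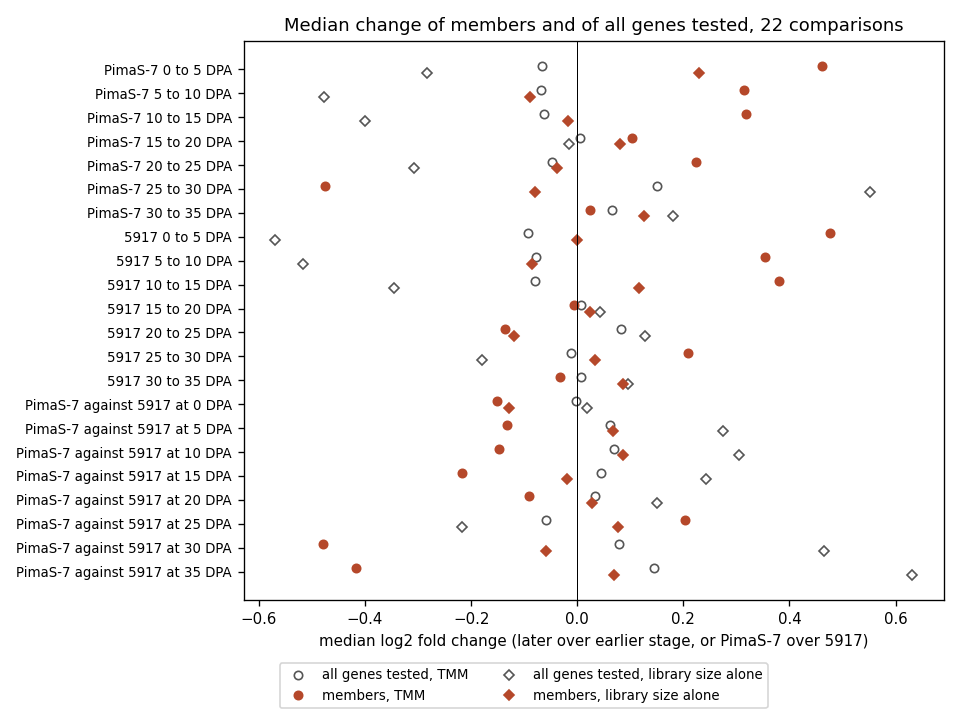
Median log2 fold change (x axis) in each of the 22 comparisons (y axis) for the 100 members and for all genes tested, with TMM (circles) and with library size alone (diamonds). The medians of the members reach 0.48 from 0 with TMM and 0.23 with library size alone, and those of all genes tested reach 0.15 and 0.63.

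The rule was also applied to some of the libraries and the chosen genes were measured in the others. The rule applied to PimaS-7 alone chose 100 genes whose median CV was 14.6% there and 17.6% in 5917, where the median of all 1343 genes past that floor was 30.96%, and 96 of the 100 lay at or below that median. Only 43 of them were among the 100 lowest in 5917, and 84 passed the floor there. Applied to 5917 alone, the rule gave 14.2% there and 19.5% in PimaS-7, against 33.1% over the 1347 genes past that floor, with 100 of 100 at or below, 41 among the 100 lowest in PimaS-7 and 90 past the floor there. Of the members, 67 were among the genes chosen in PimaS-7 and 58 among those chosen in 5917. When the rule saw only 2 of the 3 replicate numbers, the median CV over the 16 libraries of the number held out was 16.1%, 17.9% and 16.4%, against 31.1%, 33.005% and 32.8% over the genes past the floor. The libraries of the other variety and those of the number held out share stages and FPKM scaling with the libraries the rule saw. Both splits thus describe the repeat of FPKM levels and are not a second measure.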

How the data were processed

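Total RNA of the 48 samples was sequenced and, per the labels and the methods of the study, the authors mapped the reads with HISAT2 to the *G. barbadense* Pima 3-79 genome and computed FPKM with StringTie. The authors deposited FPKM per gene and sample and a table of raw counts per gene, and the counting program is not given in the sources used here. FPKM sums differed between libraries (457957 to 545221), and HISAT2 and StringTie versions are not given in the sources used here.

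The CV was taken with the SD of n - 1 over 48 libraries. Counts were tested with the quasi-likelihood F-test of edgeR 4.0.16 in R 4.3.3 (TMM, filterByExpr with a count minimum of 10), with p-values adjusted after Benjamini-Hochberg over all genes tested, although the study used DESeq2. DESeq2 1.42.0 and limma 3.58.1 on log2(FPKM + 1) were alternatives, as were other scalings, floors, library sets and designs. Medians, CVs and figures used Python 3.11.15, numpy 2.4.6, pandas 2.3.3 and matplotlib 3.10.9. The scripts were tested on simulated data.

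The members, gene lists and tests were chosen with earlier results of these data known. Genes are named where they are members with a name, the 5 of lowest CV, the 3 of highest and 3 of lowest mean, ranks 99 to 102, the 2 called members of largest fold, the 2 that moved most between scales, or quantitative PCR references and list genes past the floor. Other copies of the named members, *TUBB1*, the tubulin beta-9 chain and the single photosynthesis genes were named after their values were seen. Gene names came from the gene tables of the study, and 0 identifiers matched the reference table given. Same-numbered replicates did not deviate together (r of -0.42 to 0.23, with every r above 0.1 in 0 of 22 comparisons), so the numbers were not taken as pairs.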

Additional observations from a re-analysis of the deposited data

Results flagged for a closer look

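In the step from 25 to 30 DPA, 4 members changed differently in PimaS-7 and 5917 by the interaction test of edgeR with TMM, where 8.0% of the genes tested did (adjusted p of at most 0.05 and a log2 difference of at least 1 in size). The log2 change in PimaS-7 minus that in 5917 was -1.21 for Gbar_D05G015670, -1.30 for Gbar_D07G011710, -1.07 for Gbar_D11G008760 and -1.49 for Gbar_D11G012440, with adjusted p of 0.033, 0.029, 0.029 and 0.035. All 4 were lower at 30 than at 25 DPA in PimaS-7 (-0.85, -0.61, -0.72 and -0.84), while the fitted changes in 5917 were 0.33, 0.67, 0.32 and 0.63 and did not pass the test. None of the 4 has a name. Gbar_D11G012440 stood at 144.5, 116.8 and 134.2 FPKM at 25 DPA and at 93.7, 98.9 and 95.01 FPKM at 30 DPA in PimaS-7, and its groups did not overlap. The same gene had 113.0, 93.7 and 95.7 FPKM at 25 DPA and 164.8, 121.7 and 105.8 FPKM at 30 DPA in 5917, where they did.

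With library size alone, an alternative chosen after seeing the data, the differences were -0.59, -0.72, -0.47 and -0.86 and no member passed both thresholds. The median difference of all genes tested was 0.19 with TMM and 0.78 with library size alone, and that of the members -0.72 and -0.12. Leaving out 1 of the 12 libraries gave 0 to 22 members, a count taken without the share of all genes. It was 22 without 5917 25 DPA replicate 2 and 18 without 5917 30 DPA replicate 2. These are the libraries that lay nearer to another stage than to their own group, and their part in the result was not tested. All 4 flagged members kept the call together only without 1 of these 2 libraries. Without any other of the 12, some or all of the 4 lost it. Without 5917 25 DPA replicate 3 all 4 did, with adjusted p of 0.08, 0.064, 0.069 and 0.087 by the same test.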

How the results depend on the processing

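Of the 100 members, 5 were kept with TMM-normalized CPM, 6 with DESeq2 size factors, 47 with a floor of 10 FPKM, 30 with a floor of 5 FPKM, 27 with no floor, 51 without the 0 DPA ovules and 58 with 5917 libraries alone. The other settings kept 67 or more, with 84 to 90 when 1 replicate number was left out and 90 to 100 when 1 library was. The median CV was 33.1% with TMM, 32.1% with DESeq2 size factors, 15.5% with TPM, 15.4% without the ovules and 15.97% to 16.9% without a replicate number. The stage share of the variance was 77.7%, 73.4%, 54.1% and 47.9% under the same first 4 settings and 55.4% to 59.5% without a replicate number. For 20 members, the 6 with a name and others given by identifier, the CV was also taken within each of the 3 replicate numbers. The CV moved by at least the SD of those 3 values in all 20 with TMM, 11 with TPM, 10 with 5917 libraries alone, 9 with PimaS-7 libraries alone and 4 without the ovules.

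The 17 members called became 0 with library size alone (chosen after seeing the data) and 0 with limma at either pseudocount. With limma, 98 had an unadjusted p of at most 0.05 at any fold, with no share of all genes taken. The count of members called was 15 to 20 under the other fits. It was 12 to 31 with 1 library left out, the 31 without PimaS-7 35 DPA replicate 2. At any fold it was 84 to 100. The 4 members that differed between varieties in a step became 0 with library size alone and 0 to 22 with 1 library left out. The share of all genes was not taken with 1 library left out. With the replicate block, 16 members were called and 97 at any fold. The share of higher member calls at any fold was 73.1% with TMM, 64.3% with DESeq2, 57.0% with limma and 54.1% in 1 fit of all 48 libraries. Over all genes it was taken only with the 2-fold threshold, where it was 51.5%, 51.7%, 48.9% and 53.7%. The cause of these changes was not tested.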

Other observations

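Gbar_A10G013540, singled out after its values were seen, was among the 100 most stable genes of PimaS-7 and nearly unexpressed in 5917. It had 36.99 to 57.5 FPKM and a CV of 10.9% in PimaS-7. In 5917 it was listed at 0 in most libraries and reached at most 0.614 FPKM, in 30 DPA replicate 3, with a CV of 264.2%.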
